A study of Mus musculus with 27 samples.

Results

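The DNA replication machinery was examined as 48 of the 25209 genes in the tables, taken by symbol from a fixed list and found in every table. The list covers origin licensing (Orc1 to Orc6, Cdc6, Cdt1, Gmnn and Mcm2 to Mcm7), helicase activation (Mcm10, Cdc45 and Gins1 to Gins4), the polymerases and primase, the sliding clamp with its loader and the single-strand binding complex (Pcna, Rfc1 to Rfc5, Rpa1 to Rpa3), Okazaki fragment processing (Fen1, Lig1, Dna2, Rnaseh2a) and the supply or repair of DNA nucleotides (Rrm1, Rrm2, Tk1, Tyms, Ung). In G1, the origin recognition complex, Cdc6 and Cdt1 load the MCM2-7 ring onto DNA. At the start of S phase, Cdc45 and the GINS complex join MCM2-7 to form the active helicase, and the polymerases then copy both strands. Many of these genes are known targets of E2F factors and are transcribed most in late G1 and S phase, so that in a bulk culture a lower share of cycling cells and less RNA per cell cannot be told apart.

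The cells were V6.5 mouse embryonic stem cells (mESCs), either unedited wild type (WT) or 1 of 2 Zfp512b knockout clones, KO #4 and KO #8, in which transcription of Zfp512b was stopped by a triple terminator placed behind exon 3 together with an mCherry or a puromycin resistance gene. Each clone is a single line, and the WT cells had not passed through the same editing, so that an effect of the knockout and a property carried by a clone cannot be told apart. Among the knockout clones that had been made, those sequenced were the ones whose proliferation was increased the least. RNA was sequenced in the naive state in 2i and LIF (Day 0, 3 libraries per group), in primed cells kept for a short time in differentiation medium with LIF (Day 2), in cardiomyocyte (CM) cultures from embryoid bodies (Day 7.5), and in neural progenitor (NPC) cultures from embryoid bodies treated with retinoic acid (Day 10), with 2 libraries per group at the last 3 stages. The labels do not say whether the replicates came from separate cultures, and the p-values therefore measure the spread between these libraries, which may be technical.

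The tables give a base mean per gene, which is the mean normalised read count over the WT and knockout libraries of 1 comparison. Because a base mean is a sum of whole reads weighted by each library's size factor, and the WT libraries enter both tables of a stage, the reads of each library could be solved as whole numbers for most genes with a base mean under 1000 in the primed, NPC and CM tables. This gave reads for 9 of the 48 members in primed cells, 20 in NPCs and 13 in CMs. In all, 20 members had reads at 1 stage or more, 9 of them at all 3 stages, and 28 members were too highly expressed at every stage, among them all of Mcm2 to Mcm7. The members with reads are thus the weakly expressed part of the machinery, and since the limit applies to WT and knockout libraries together, a member raised past it in a clone is not among them. In naive cells, where 9 libraries share 2 equations, and for the 28 other members, only pooled base means and the difference between the clones are described. Depth was 34.2 to 39.6 megareads on genes per naive library and 15.1 to 19.4 megareads per library at the later stages.

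The reads of the targeted gene could be solved in CMs, where Zfp512b had normalised read counts of 1118 and 1047 in WT, 189 and 214 in KO #4, and 156 and 174 in KO #8. This corresponded to log2 fold changes of -2.42 (standard error 0.13, adjusted p = 7.18e-08) and -2.71 (standard error 0.13, adjusted p = 1.5e-06), as the labels give it. At the primed stage Zfp512b had base means of 579 and 548, under the limit of 1000, but was 1 of 2 genes among 1691 with a base mean between 400 and 700 for which no solution was found, so that its loss could not be checked there or at the naive and NPC stages. Markers of the cultures were checked on base means, each as its share of all base means of a table in ppm (parts-per-million). The cardiomyocyte markers Tnnt2 and Myh6 stood at 210 and 338 ppm in the CM tables and at 1.22 and 0.519 in the NPC tables. The proneural gene Neurog2 stood at 6.53 ppm in the NPC tables and at 0.0403 in the CM tables. However, the neural progenitor markers Pax6 and Sox1 were higher in the CM tables (41.7 and 51.1 ppm) than in the NPC tables (17.3 and 9.66 ppm). These levels pool WT and knockout libraries, and in the CM tables KO #4 exceeded KO #8 by 359% (Pax6) and 364% (Sox1) of the mean level.

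Of the 48 members, 7 lie on mouse chromosome 8 and 41 elsewhere. The former are Mcm5 (mm9 chr8:77633427-77652338, a subunit of the MCM2-7 ring), Orc6 (chr8:87823531-87832177), the licensing factor Cdt1 (chr8:125091915-125097028), 3 GINS subunits, namely Gins2 (chr8:123102533-123113204), Gins3 (chr8:98157459-98168959) and Gins4 (chr8:24337082-24348140), and Rnaseh2a (chr8:87480509-87493666), the catalytic subunit of ribonuclease H2. All are annotated as protein-coding. Gins1 is the only GINS subunit on another chromosome (chr2:150731136-150757016). Chromosome 8 matters here because its genes as a whole were higher in both clones. For genes on it with a mean of at least 100 reads, the median log2 fold change was 0.45 in KO #4 and 0.46 in KO #8 at the primed stage (302 genes). The medians were 0.52 in each clone at the NPC stage (304 genes), and 0.55 and 0.53 at the CM stage (304 genes). Those of the 19 other chromosomes lay between -0.09 and 0.08 in all 6 comparisons.

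To show what the promoters of these genes look like, the 250 bases in front of the start site are given for Mcm5, Gins3 and Rnaseh2a on chromosome 8 and for the clamp loader gene Rfc3 on chromosome 5, from RefSeq on GRCm38.p6 (chr8:75109259-75109508 on the plus strand, chr8:95633309-95633558 on the plus strand, chr8:84966077-84966326 on the minus strand and chr5:151651209-151651458 on the minus strand). Capitals mark the E2F-type sequences TTTGGCGC, TTTCCCGC, TTTGCCGC and TTTCGCGC, searched on both strands, which can overlap each other.
Mcm5: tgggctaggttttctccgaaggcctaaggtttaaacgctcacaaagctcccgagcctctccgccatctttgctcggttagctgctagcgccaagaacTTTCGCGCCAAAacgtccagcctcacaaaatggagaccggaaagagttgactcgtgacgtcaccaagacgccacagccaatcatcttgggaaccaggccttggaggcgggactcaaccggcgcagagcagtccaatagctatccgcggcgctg
Gins3: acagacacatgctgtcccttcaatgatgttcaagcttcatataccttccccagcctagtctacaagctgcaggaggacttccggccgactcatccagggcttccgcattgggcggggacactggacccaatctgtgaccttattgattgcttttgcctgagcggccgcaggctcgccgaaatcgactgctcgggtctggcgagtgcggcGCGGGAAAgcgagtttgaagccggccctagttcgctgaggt
Rnaseh2a: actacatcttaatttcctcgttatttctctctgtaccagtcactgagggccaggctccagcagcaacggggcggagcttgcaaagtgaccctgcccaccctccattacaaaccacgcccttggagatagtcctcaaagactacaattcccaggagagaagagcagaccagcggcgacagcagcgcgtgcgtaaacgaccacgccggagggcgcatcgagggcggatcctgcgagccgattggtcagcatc
Rfc3: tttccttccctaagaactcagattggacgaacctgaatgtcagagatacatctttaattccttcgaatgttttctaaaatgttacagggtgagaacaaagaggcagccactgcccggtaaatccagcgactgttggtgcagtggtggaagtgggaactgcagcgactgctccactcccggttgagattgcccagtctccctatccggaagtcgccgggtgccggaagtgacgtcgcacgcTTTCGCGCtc
In Mcm5, the match to TTTCGCGC begins 153 bases before the start site and overlaps a reverse match to TTTGGCGC. The match in Gins3 begins 41 bases and that in Rfc3 10 bases before the start site, and Rnaseh2a holds none of the 4 sequences. Promoters of 40 of the 48 members were in the table, counting 250 bases before and 50 after the start. Of these, 15 (37.5%) held at least 1 of the 4 sequences, against 2.60% of 27025 genes in the table and 2.26% of all windows of this length. CCAAT, on either strand, was held by 24 members (60.0%) and by 41.1% of genes. These are letter matches only and do not show binding.

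The level of the machinery was lower in the differentiated cultures. The tables of the stages were normalised separately, and levels are therefore given in ppm of all base means of a table. Summed over the 48 members, base means made up 10340 ppm of all base means in naive cells, 9661 in primed cells, 4937 in NPCs and 5646 in CMs, with WT and knockout libraries pooled and no replicate error available. Relative to naive cells, 33 members were lower and 15 higher in primed cells (median ratio 0.917, against 0.954 for 8922 genes expressed at all stages). In NPCs, 45 were lower and 3 higher, with a median ratio of 0.482, and in CMs 47 were lower and 1 higher, with a median ratio of 0.547. For all expressed genes these medians were 1.04 and 0.979. The lowest ratio was that of Orc1 in NPCs, the largest subunit of the origin recognition complex, at 0.17 of its naive level, followed by Mcm10 at 0.201 and the uracil glycosylase Ung at 0.277. By comparison, Orc3 stood at 1.27, Rfc3 at 1.06 and Rfc4 at 1.01 of the naive level in NPCs.

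**Figure D1:**
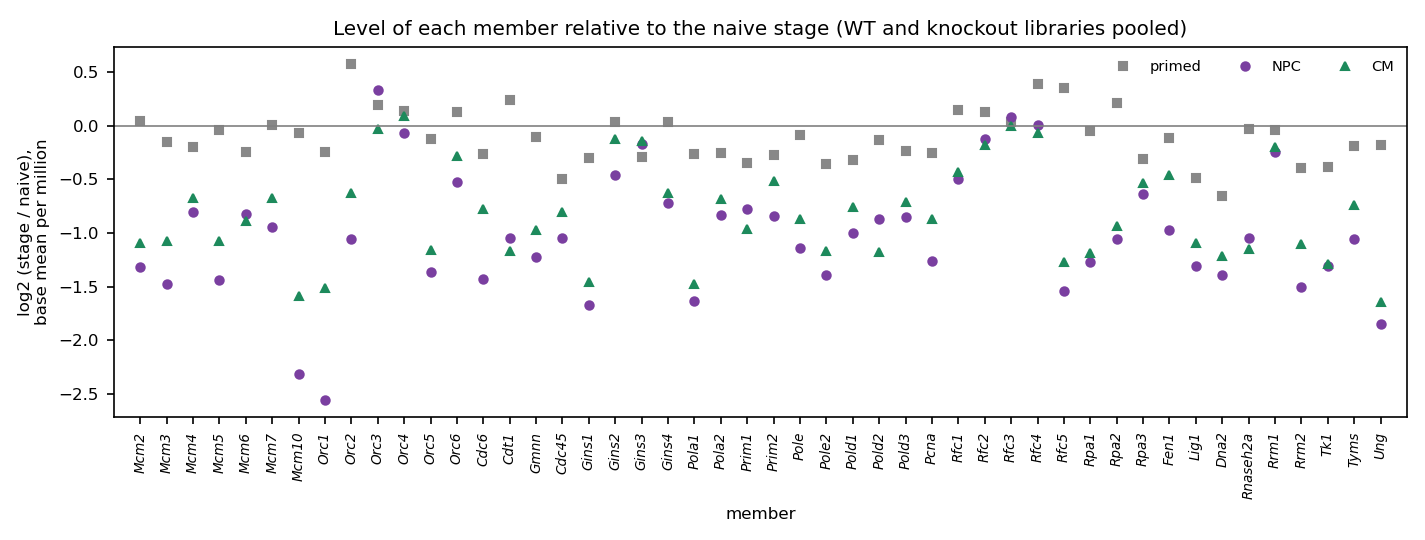
Level of each of the 48 members at the primed, NPC and CM stages relative to naive cells, as the log2 ratio of base means in ppm (y axis), with members in the order of their roles along the x axis and WT and knockout libraries pooled. Most NPC and CM points lie under 0, down to a ratio of 0.17 for Orc1 in NPCs, whereas the primed points scatter around 0.

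Subunits of 1 complex did not share 1 RNA level. In ppm per kilobase of exon, the 6 MCM2-7 subunits ranged from 122 (Mcm7) to 237 (Mcm3) in naive cells, a ratio of 1.94, and from 63.4 (Mcm7) to 85.1 (Mcm2) in NPCs, a ratio of 1.34. In the origin recognition complex the spread was wider, from 7.69 (Orc4) to 66.9 (Orc6) in naive cells, a ratio of 8.71, and the ratio stayed between 6.74 and 8.72 at the other stages. The length used is that of all annotated exons of a gene, 7.46 kilobases for Orc4 and 1.65 for Orc6. It can exceed the transcript made, and ratios between subunits depend on it. Undivided, Orc4 stood at 57.3 and Orc6 at 111 ppm in naive cells. The GINS subunits, which form a complex with 1 copy of each, ranged from 11.6 (Gins3) to 62.5 (Gins4) in naive cells, a ratio of 5.41. Within the ORC, the NPC level was 0.17 of the naive level for Orc1, 0.95 for Orc4, 0.696 for Orc6 and 1.27 for Orc3. Mcm3 or Mcm2 was the most abundant member per length at every stage, at 237 ppm per kilobase in naive cells, 220 in primed cells, 85.1 in NPCs and 113 in CMs. The least abundant per length, with the same limit, were Orc4 in naive (7.69) and primed cells (8.47), Orc1 in NPCs (5.35) and thymidine kinase Tk1 in CMs (6.96). Both subunits of ribonucleotide reductase, the enzyme that makes deoxynucleotides, changed order: Rrm2 exceeded Rrm1 in naive cells (188 against 95.9) and was under it in NPCs (66.6 against 81).

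The difference could be tested between WT libraries for the 9 members recovered at all 3 later stages. All 9 were called lower (adjusted p under 0.05, limma) in WT NPCs than in WT primed cells, with log2 fold changes from -1.98 to -0.47, and all 9 in WT CMs, from -1.86 to -0.27. Calls among the 7839 genes tested were frequent in these comparisons: 36.4% were lower and 40.7% higher in NPCs, and 34.7% lower and 39.6% higher in CMs. Gins1, on a scale common to the 3 stages, had 1050 and 1061 normalised reads in the primed WT libraries, 246 and 290 in NPCs and 276 and 304 in CMs. It fell by 1.98 (standard error 0.09, adjusted p = 2.67e-13) and 1.86 (standard error 0.09, adjusted p = 6.76e-13) on the log2 scale, the strongest drop of the 9. Gins3 had 363 and 418 reads in the primed WT libraries, 269 and 295 in the NPC libraries and 303 and 344 in the CM libraries, and fell the least, by 0.47 (standard error 0.11, adjusted p = 0.00057) and 0.27 (standard error 0.11, adjusted p = 0.0296). The call of Gins3 in CMs was lost under 4 of 24 alternatives, among them the shallower primed WT library left out (adjusted p = 0.217) and the deeper CM WT library left out (adjusted p = 0.226). The comparisons against primed cells were added after the data were seen.

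In primed cells, the GINS subunits on chromosome 8 were higher in both clones and most other recovered members did not pass the test. In KO #4, 2 of 9 members were called higher and 0 lower, where 9.65% of 9140 tested genes were called higher and 9.25% lower. KO #8 had 2 members called higher and 1 lower, with 8.15% and 6.04% of tested genes. The higher members were Gins2 and Gins3, the only recovered members on chromosome 8 at this stage. Of all 446 tested genes of this chromosome, 55.2% (KO #4) and 55.6% (KO #8) were called higher.

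Gins2 had 847 and 847 normalised reads in WT, 1041 and 1084 in KO #4, and 1083 and 1207 in KO #8. Both libraries of each clone lay above both WT libraries. Taking each clone alone, this was so for 29.1% (KO #4) and 26.7% (KO #8) of all tested genes. The log2 fold changes of Gins2 were 0.33 (standard error 0.07, adjusted p = 0.000602) and 0.43 (standard error 0.07, adjusted p = 1.48e-05). Gins3 had 294 and 339 reads in WT, 430 and 454 in KO #4, and 441 and 487 in KO #8. Its log2 fold changes were 0.48 (standard error 0.11, adjusted p = 0.000764) and 0.55 (standard error 0.11, adjusted p = 0.000191). Gins1, by contrast, had 852 and 861 reads in WT, 788 and 764 in KO #4, and 808 and 816 in KO #8, so that the knockout libraries lay under WT without a call (adjusted p = 0.188 and 0.571). The libraries of the clone lay under WT for 28.3% (KO #4) and 26.8% (KO #8) of all tested genes.

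The ratios within the GINS complex therefore differed between knockout and WT libraries. The log2 ratio of Gins2 to Gins1 was -0.01 and -0.02 in the WT libraries, 0.40 and 0.50 in KO #4, and 0.42 and 0.56 in KO #8. The log2 ratio of Gins3 to Gins1 was -1.53 and -1.34 in WT, and between -0.87 and -0.74 in the 4 knockout libraries. These ratios were not tested. For comparison, genes on chromosome 8 with a mean of at least 100 reads had a median log2 fold change of 0.45 (KO #4) and 0.46 (KO #8) at this stage. Whether the GINS ratios go beyond that of the chromosome was not tested.

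Among the 7 recovered members on other chromosomes, the log2 fold changes ran from -0.14 to 0.03 in KO #4, with 0 called, and from -0.34 to 0.10 in KO #8, with 1 called. This was the clamp loader subunit Rfc4, with 961 and 1049 reads in WT and 739 and 850 in KO #8 (log2 fold change -0.34, standard error 0.08, adjusted p = 0.00133). KO #4 overlapped WT for Rfc4, with 903 and 972 reads. The call of Rfc4 was lost without the shallower WT library (adjusted p = 0.0628) and without the deeper KO #8 library (adjusted p = 0.0924), as it was with no filter on low counts (adjusted p = 0.0611). Among the marker genes, Otx2 (-0.62 and -0.39) and Map2 (-0.64 and -0.52) were called lower, and Nes (0.34 and 0.73) and Sox1 (1.32 and 0.86) higher, in KO #4 and KO #8 at this stage. Acta2 (-1.97) and the endothelial marker Kdr were called lower in KO #8. Their part in the result was not tested. Between the clones, 0 of 9 members were called with limma (2 at an unadjusted p under 0.05), and 0.941% of all tested genes were called higher and 1.79% lower in KO #4.

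**Figure D2:**
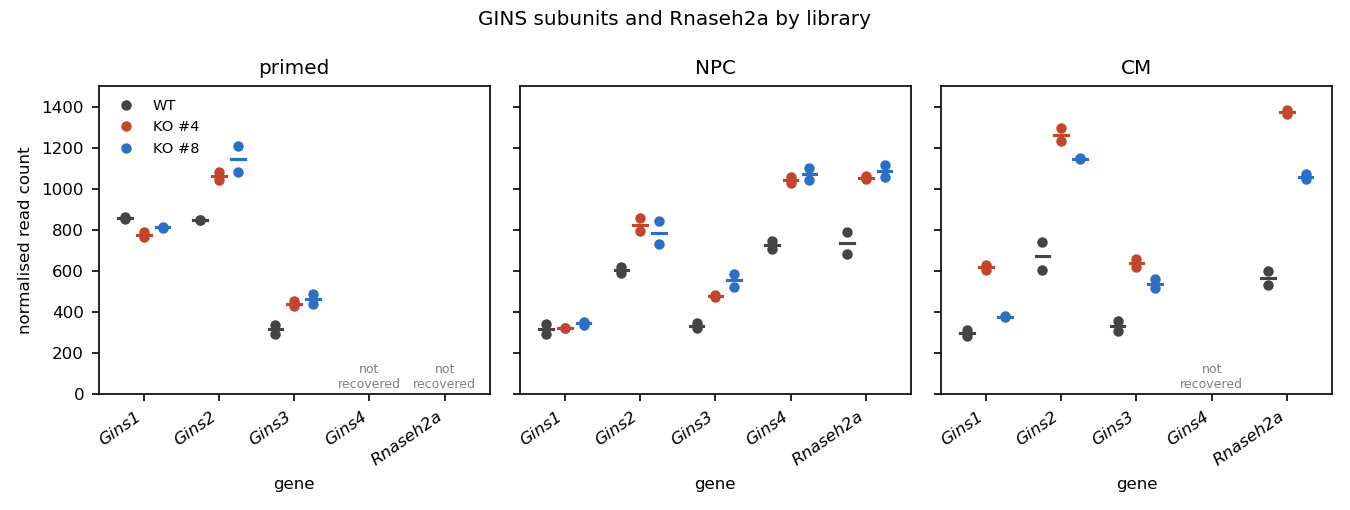
Normalised read counts (y axis) of the 4 GINS subunits and Rnaseh2a in each primed, NPC and CM library, with points for libraries and short lines for group means of 2 libraries. Gins2, Gins3, Gins4 and Rnaseh2a, all on chromosome 8, lie above WT in both clones wherever they were recovered, whereas Gins1 on chromosome 2 lies above WT in CMs and not in primed cells.

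In NPCs, calls among the 20 recovered members were likewise those on chromosome 8. All 4 members on chromosome 8 were called higher in both clones, and 0 of the 16 others were called in either clone. The background was 4.89% of 9437 genes called higher and 2.89% lower in KO #4, and 7.58% and 4.24% in KO #8. Among the 417 tested genes of chromosome 8, 41% and 42.2% were called higher. The 16 members elsewhere had log2 fold changes from -0.22 to 0.14 in KO #4 (0 at an unadjusted p under 0.05) and from -0.07 to 0.32 in KO #8 (1 at an unadjusted p under 0.05, Cdc45). In KO #8, however, 13 of these 16 had a positive log2 fold change (median 0.12), and 9 lay above both WT libraries and 1 below, against 27.1% and 26.2% of all tested genes. In KO #4, 8 of the 16 were positive (median 0.00), and 2 lay above and 4 below WT, against 27.5% of all tested genes in each direction.

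Gins4 had 744 and 706 normalised reads in WT, 1056 and 1030 in KO #4, and 1103 and 1044 in KO #8. It rose by 0.52 (standard error 0.08, adjusted p = 0.00746) and 0.57 (standard error 0.08, adjusted p = 0.00389) on the log2 scale. Gins3 rose from 322 and 347 reads in WT to 482 and 473 in KO #4 and 588 and 522 in KO #8. Its log2 fold changes were 0.51 (standard error 0.12, adjusted p = 0.0324) and 0.73 (standard error 0.12, adjusted p = 0.00604). Gins2, with 589 and 620 reads in WT, 795 and 856 in KO #4, and 842 and 731 in KO #8, changed by 0.45 (standard error 0.10, adjusted p = 0.0317) and 0.38 (standard error 0.10, adjusted p = 0.0467). Gins1 was not called, with 295 and 341 reads in WT, 322 and 325 in KO #4, and 340 and 351 in KO #8 (adjusted p = 0.949 and 0.636). The log2 ratio to Gins1 was higher in all 4 knockout libraries than in both WT libraries for each of the 3 subunits, for example 1.33 and 1.05 in WT and 1.57 to 1.71 in the clones for Gins4. The median log2 fold change of chromosome 8 genes was 0.52 in each clone at this stage, and the ratios were not tested against it.

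Rnaseh2a, whose enzyme cuts RNA from RNA-DNA hybrids and removes single ribonucleotides from DNA, had 791 and 683 reads in WT, 1060 and 1046 in KO #4, and 1116 and 1059 in KO #8. The log2 fold changes were 0.52 (standard error 0.09, adjusted p = 0.0122) and 0.56 (standard error 0.09, adjusted p = 0.00617). The accessory subunits of the same enzyme, Rnaseh2b on chromosome 14 and Rnaseh2c on chromosome 19, were not called in NPCs. Rnaseh2b had 349 and 331 reads in WT, 328 and 283 in KO #4, and 373 and 342 in KO #8.

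The licensing factors recovered in NPCs did not pass the test. Cdc6, which loads MCM2-7 together with Cdt1, had 821 and 862 reads in WT, 699 and 770 in KO #4, and 988 and 881 in KO #8. Thus KO #4 lay under and KO #8 above WT, and neither difference passed the test (adjusted p = 0.305 and 0.398). Gmnn, the inhibitor of Cdt1, overlapped WT in both clones, with 696 and 742 reads in WT and 686 to 731 in the clones. The ORC subunits Orc1, Orc4 and Orc5 changed by -0.08 to 0.13 in KO #4 and by -0.07 to 0.18 in KO #8. Between the clones, 0 of 20 members were called with limma (3 at an unadjusted p under 0.05), and 0.498% of tested genes were called higher and 0.827% lower in KO #4.

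The calls in NPCs rested on 2 libraries per group. With any 1 of the 2 WT or 2 KO #4 libraries left out, 0 members were called in KO #4. In KO #8, 1 was called without the deeper and 2 without the shallower WT library. Voom weights, or no filter on low counts, left 2 members called in KO #4. Without the shallower KO #8 library, 2 members were called between the clones. Gins2 in KO #8 lost its call under 9 of 13 alternatives (adjusted p up to 0.276). The log2 fold changes of the 4 genes stayed between 0.27 and 0.81 under all 13 alternatives. The neural progenitor markers Pax6, Sox1 and Hes5 were called higher in both clones at this stage, with log2 fold changes of 1.24 and 1.13 for Pax6, 1.83 and 2.33 for Sox1, and 1.61 and 1.57 for Hes5. Acta2, a smooth muscle marker, was called lower in both (-1.87 and -0.72), Tagln (-2.00) and the blood marker Hba-x (-2.91) were called lower in KO #4, and Tnnt2 was called higher in KO #8 (1.79). Their part in the results was not tested.

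In CMs, recovered members on chromosome 8 and elsewhere were higher in both clones. All 13 were called higher in KO #4, where 26.0% of 9115 tested genes were called higher and 28.9% lower. In KO #8, 12 of 13 were called higher, where 11.7% were higher and 12.2% lower, and the remaining member, Rpa3, had adjusted p = 0.0804. The median log2 fold change of the members was 0.91 in KO #4 and 0.41 in KO #8, against 0.00 over all tested genes in both. For each of the 13, both libraries of each clone lay above both WT libraries. Over all tested genes, which had recovered reads and a mean of at least 10, this was so for 38.6% in KO #4 and 31.7% in KO #8.

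**Figure D3:**
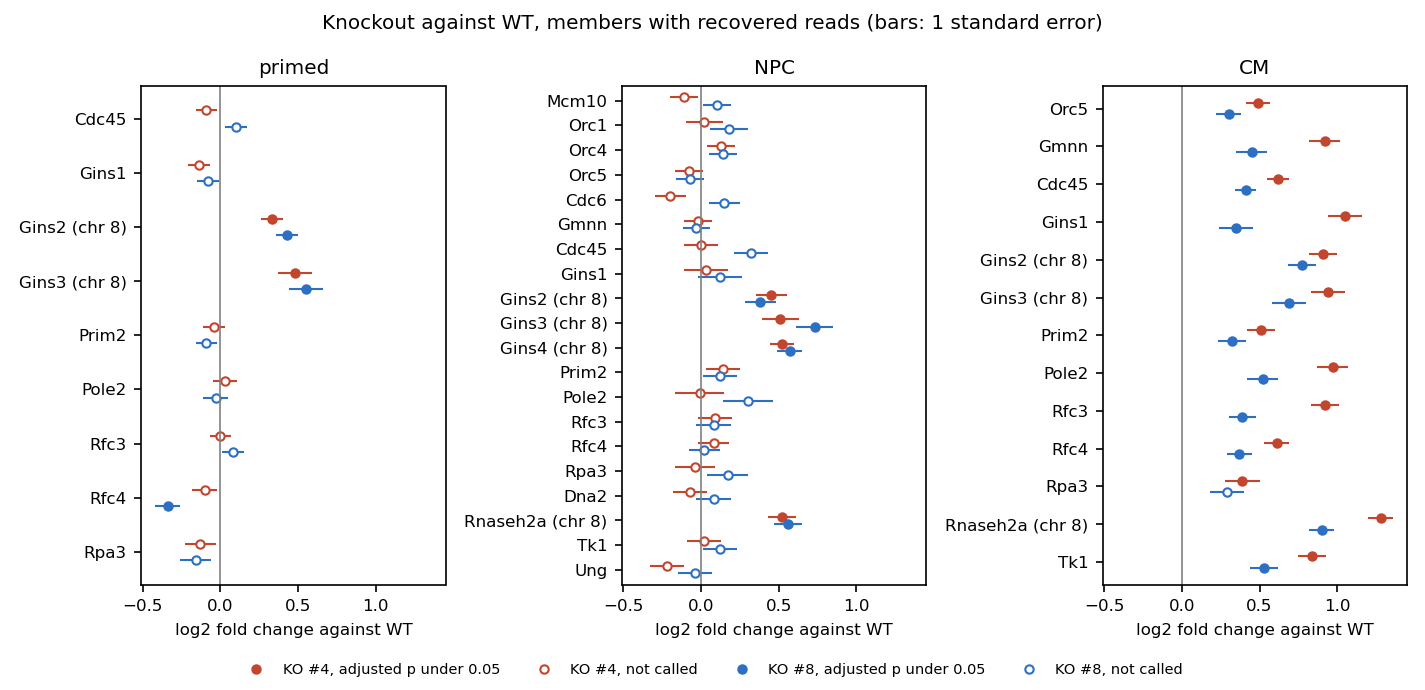
Log2 fold change against WT (x axis, bars of 1 standard error, 2 libraries per group) for the members with recovered reads in primed cells, NPCs and CMs, in KO #4 (red) and KO #8 (blue), with filled points for an adjusted p under 0.05. In primed cells and NPCs the filled points to the right of 0 belong to members on chromosome 8, and in CMs all 13 members lie to the right of 0.

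The 3 recovered members on chromosome 8 had log2 fold changes of 0.91 to 1.28 in KO #4 and of 0.69 to 0.90 in KO #8, above the medians of that chromosome and, but for Rnaseh2a in KO #4, within its 10th to 90th percentiles (-0.88 to 1.27 and -0.02 to 1.06). Rnaseh2a changed the most, with 600 and 534 normalised reads in WT, 1381 and 1365 in KO #4, and 1072 and 1047 in KO #8. The log2 fold changes were 1.28 (standard error 0.08, adjusted p = 2.78e-07) and 0.90 (standard error 0.08, adjusted p = 3.86e-05). Its partner Rnaseh2b had 450 and 461 reads in WT, 705 and 781 in KO #4, and 526 and 481 in KO #8, and was called in KO #4 (log2 fold change 0.70, standard error 0.10, adjusted p = 0.000127) and not in KO #8 (adjusted p = 0.337). Rnaseh2c was called in neither clone.

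Gins1, which had not been called in primed cells or NPCs, had 283 and 314 reads in WT, 607 and 631 in KO #4, and 376 and 382 in KO #8. It rose by 1.05 (standard error 0.11, adjusted p = 1.18e-05) in KO #4 and by 0.35 (standard error 0.11, adjusted p = 0.0389) in KO #8. The second of these calls was lost under 9 of 13 alternatives, including each library of either clone left out and the deeper WT library left out (adjusted p up to 0.154). Gins2 had 607 and 741 reads in WT, 1233 and 1294 in KO #4, and 1143 and 1150 in KO #8, with log2 fold changes of 0.91 (standard error 0.09, adjusted p = 1.19e-05) and 0.77 (standard error 0.09, adjusted p = 0.000249). Gins3 had 311 and 356 reads in WT, 657 and 620 in KO #4, and 517 and 562 in KO #8, with log2 fold changes of 0.94 (standard error 0.11, adjusted p = 2.89e-05) and 0.69 (standard error 0.11, adjusted p = 0.00105).

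The ratios among GINS subunits in CMs were as follows. The log2 ratio of Gins3 to Gins1 was 0.14 and 0.18 in WT, 0.11 and -0.02 in KO #4, and 0.46 and 0.56 in KO #8. That of Gins2 to Gins1 was 1.10 and 1.24 in WT, 1.02 and 1.04 in KO #4, and 1.60 and 1.59 in KO #8. In KO #8 both ratios lay above both WT libraries, and in KO #4 neither did. The difference of these ratios between the clones was not tested.

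Members of the polymerase and clamp loader complexes on other chromosomes rose as well. Pole2, the second subunit of polymerase epsilon, had 351 and 347 reads in WT, 663 and 710 in KO #4, and 521 and 485 in KO #8 (log2 fold changes 0.97 and 0.52, standard error 0.10 each, adjusted p = 1.09e-05 and 0.00325). Rfc3 had 635 and 765 reads in WT, 1325 and 1317 in KO #4, and 922 and 911 in KO #8 (log2 fold changes 0.92 and 0.39, standard error 0.09 each, adjusted p = 9.08e-06 and 0.00974). Its partner Rfc4 had 617 and 610 reads in WT, 937 and 932 in KO #4, and 793 and 790 in KO #8 (log2 fold changes 0.61 and 0.37). Tk1, the thymidine kinase of cycling cells, had 485 and 520 reads in WT, 848 and 951 in KO #4, and 740 and 711 in KO #8 (log2 fold changes 0.84 and 0.53). For these 4 genes, KO #4 lay above KO #8 and KO #8 above WT in every library. The share of all genes with this order was not computed. Of all tested genes, 24.9% were called higher in KO #4 than in KO #8. The remaining members, Orc5, Gmnn, Cdc45, Prim2 and Rpa3, had log2 fold changes of 0.39 to 0.92 in KO #4 and of 0.29 to 0.45 in KO #8. Gmnn rose most among them, from 612 and 763 reads in WT to 1310 and 1269 in KO #4 and 964 and 902 in KO #8.

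Leaving out single libraries left 12 or 13 members called in KO #4 and 7 to 11 in KO #8, with 7 without the deeper and 8 without the shallower KO #8 library. Between the clones, 8 of 13 members were called higher in KO #4 and 0 lower, where 24.9% of tested genes were higher and 28.0% lower. The largest differences were those of Gins1 (0.71, standard error 0.11, adjusted p = 0.000233), Rfc3 (0.53, standard error 0.09, adjusted p = 0.000566), Gmnn (0.47, standard error 0.10, adjusted p = 0.00249), Pole2 (0.45, standard error 0.10, adjusted p = 0.00277) and Rnaseh2a (0.37, standard error 0.08, adjusted p = 0.00232). Only 5 members stayed called without the shallower KO #4 library or without either KO #8 library.

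The make-up of the CM cultures differed between the groups at the same time. The summed reads of the 5 recovered naive pluripotency markers (Zfp42, Esrrb, Klf4, Tfcp2l1, Nanog) were 1600 and 1578 in WT, 3935 and 2801 in KO #4, and 806 and 753 in KO #8. By this sum KO #4 lay above and KO #8 under WT. The markers did not move together in KO #4, where Esrrb (1.38), Nanog (1.64) and Zfp42 (1.85) were called higher and Klf4 lower (-1.41). In KO #8 these same genes were all called lower, and Tfcp2l1 was called in neither clone. All 6 cardiomyocyte markers and all 5 smooth muscle and fibroblast markers were lower in KO #4 than in KO #8 by base mean, with median differences of -98.5% and -185% of their mean level. Gata1, a blood marker, had summed reads of 147 and 74 in WT, 6 and 6 in KO #4, and 674 and 648 in KO #8. None of these markers was at 0 in every library. Their part in the result was not tested, and neither the 6 cardiomyocyte nor the 5 smooth muscle and fibroblast markers had reads per library.

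The difference between the clones could be computed for all 48 members at all 4 stages, since the WT libraries cancel between the tables of a stage. It is given as KO #4 minus KO #8 in percent of the mean level, without a test because single libraries are not resolved, and the WT scaling ratios behind it differed by 0.0856% to 0.489%. In naive cells, 37 members were higher and 11 lower in KO #4 (median 5.64%, against 0.442% over 10787 genes, of which 51.9% were higher). In primed cells, 25 were higher and 23 lower (median 0.636%, against -0.13% over 9776 genes, of which 49.4% were higher). NPCs had 10 higher and 38 lower (median -5.57%, against 0.553% over 11124 genes, of which 51.8% were higher). In CMs, 47 of 48 members were higher in KO #4, with a median of 34.6%, against -0.56% over 10820 genes, of which 49.4% were higher.

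**Figure D4:**
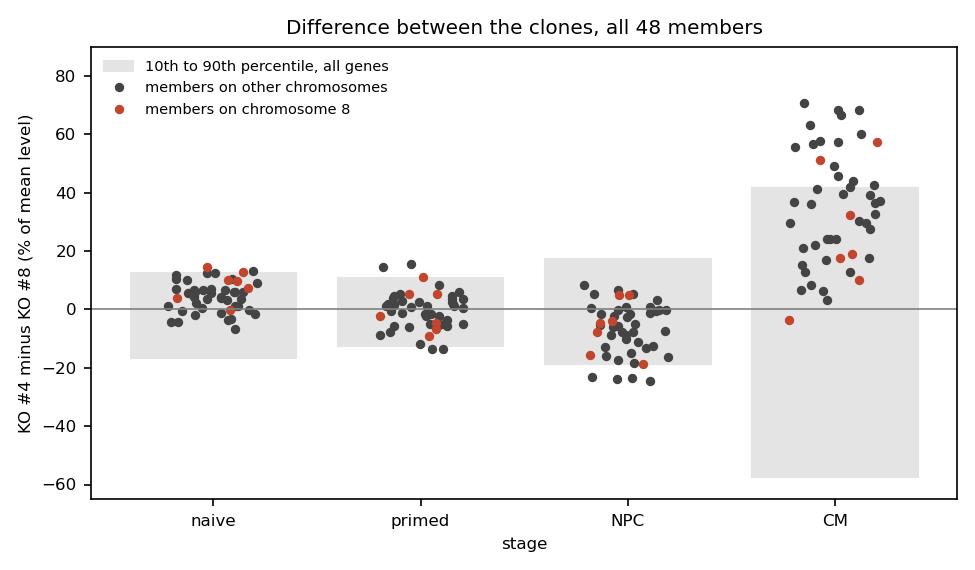
Difference between KO #4 and KO #8 (y axis, percent of the mean level, from base means) for each of the 48 members at the 4 stages, with members on chromosome 8 in red and grey boxes from the 10th to the 90th percentile of all genes. The members lie mostly within the boxes at all 4 stages. In CMs, 47 of 48 lie above 0 and 17 lie above the 90th percentile.

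In CMs, the most unequal member was Rrm2, the regulated subunit of ribonucleotide reductase, at 70.7%, followed by Pole at 68.5%, Orc1 at 68.3%, Ung at 66.6% and Mcm10 at 63.2%. All 6 MCM2-7 subunits were higher in KO #4, from 21% (Mcm4) to 57.8% (Mcm7), with Mcm5 at 57.4%. Licensing factors were also higher, with 51.2% for Cdt1, 39.3% for Cdc6 and 37.1% for Gmnn. Within the ORC the subunits did not move together: Orc1 stood at 68.3%, Orc2 at 32.9% and Orc5 at 13%, whereas Orc3 stood at 6.78%, Orc4 at 3.4% and Orc6 at -3.55%. Orc6 was the 1 member lower in KO #4. The 7 members on chromosome 8 had a median of 18.9% and the 41 others of 36.4%, and 17 of the 48 lay above the 90th percentile of all genes (41.6%). In the other stages the extremes were smaller, from -6.77% (Orc3) to 14.7% (Gins2) in naive cells, from -13.6% (Cdc45) to 15.7% (Orc4) in primed cells and from -24.4% (Cdc6) to 8.5% (Orc3) in NPCs.

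The change of the knockout effect between stages was tested for the 9 members recovered at the 3 later stages, as the mean of both clones against WT. The effect was called higher in CMs than in primed cells for 8 of 9 members, where 7.69% of 7839 genes had a higher and 11.7% a lower effect. The exception was Gins3, with a difference of 0.26 (standard error 0.13, adjusted p = 0.174). The difference was largest for Gins1 (0.77, standard error 0.12, adjusted p = 8.76e-05), Pole2 (0.71, standard error 0.14, adjusted p = 0.00144) and Rfc4 (0.67, standard error 0.10, adjusted p = 8.51e-05), which lie outside chromosome 8. It did not always start from a rise: in primed cells, the group means of Gins1, Prim2, Rfc4 and Rpa3 lay under WT in both clones. From primed cells to NPCs, 0 of 9 members were called with limma (1 at an unadjusted p under 0.05), with differences from 0.02 to 0.25, where 2.39% of genes had a higher and 2.45% a lower effect.

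Lists of genes outside the 48, for firing and fork factors, nucleotide supply, chromatin assembly and E2F factors, were read in the same way. In primed cells and NPCs, Tk2, a mitochondrial thymidine kinase on chromosome 8, was called higher in both clones at both stages. It was among 2 (primed) and 4 (NPC) tested genes of nucleotide supply. Asf1b, a histone chaperone on chromosome 8, was called higher in both clones in primed cells and in KO #8 in NPCs. Calls outside chromosome 8 were also found in primed KO #4. There, 1 of 10 firing and fork factors was higher (Mtbp, 0.23) and 1 lower (Mcm8, -0.55), near the share of all tested genes (9.65% higher, 9.25% lower). E2f5 (0.28) and E2f7 (0.41) were higher among 7 E2F and pocket protein genes. In primed KO #8, 0 of these 10 factors and 1 of the 7 genes, Rbl2 on chromosome 8 (0.59), were called. Of all tested genes, 8.15% were called higher and 6.04% lower there. Rbl2 was called in both clones in NPCs (0.57 and 0.51). Of the firing and fork factors outside the list, 0 of 14 tested were called in NPCs in either clone, where 4.89% (KO #4) and 7.58% (KO #8) of all tested genes were called higher and 2.89% and 4.24% lower, so that few calls among 14 genes would be seen at that share. In CMs, 9 of 14 were higher and 1 lower in KO #4 (26.0% and 28.9% of all tested genes), and 3 were higher and 0 lower in KO #8 (11.7% and 12.2%). The 3 higher in both were the origin-firing kinase Cdc7 (log2 fold changes 0.90 and 0.39), the helicase Recql4 (1.25 and 0.52) and Mtbp (0.43 and 0.37). Of 5 tested E2F and pocket protein genes in CMs, E2f1, E2f2 and Rbl1 were called higher in both clones, with 0.76 and 0.64 for E2f1 and 0.94 in each clone for E2f2, and Rb1 was called lower in KO #4 (-0.53, standard error 0.10, adjusted p = 0.00098) and not in KO #8 (-0.06, adjusted p = 0.738). None of the 10 markers of G2 and M was recovered. By base mean 8 of 10 were higher in KO #4 than in KO #8 in CMs (median 20.4%), with Mki67 at -4.5%, against 49.4% of all genes compared.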

How the data were processed

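RNA-seq was done on 27 libraries. Per the labels and the paper's methods, the authors trimmed reads (Trim Galore 0.6.7), aligned them to mm9 (HISAT2 2.2), counted them per gene (featureCounts) and compared each clone with WT (DESeq2 1.46.0). The deposited values are 8 tables with 6 columns each, a base mean, which is a signal that the authors computed as the mean normalised count over the libraries of a table, and their fold changes, standard errors, test statistics, p-values and adjusted p-values, which were not used. Stage and clone come from the name of a table.

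Base means hold 10 significant digits. The size factors were read from genes with 1 read in 1 library, and whole reads of the 6 libraries of a stage were solved from its 2 tables for base means under 1000, allowing replicates to differ by 5 standard deviations. Genes with base means under 400 and no solution were solved again with a wider allowance. Between base means of 10 and 1000, 97.2 to 100% of genes had exactly 1 solution. When base means were altered in their last digits, 0 to 26% still had a solution, without use of the wider allowance. Between 700 and 1000 this was 7.5% in primed cells, 26% in NPCs and 15.5% in CMs, so that a solution there is less specific. By base mean with KO #4, the recovered members in this range were Mcm10, Orc4, Orc5, Cdc6, Gins4, Rfc3, Rfc4, Dna2 and Rnaseh2a in NPCs. In CMs they were Orc5, Gmnn, Cdc45, Gins2, Prim2, Rfc3, Rfc4 and Rnaseh2a. In primed cells they were Cdc45, Gins1, Gins2, Prim2, Pole2, Rfc3 and Rfc4. The libraries carry no replicate number and are named deeper or shallower. Of the solved reads, 53.1 to 54.3% were even numbers, and counts are not independent molecules.

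Reads were scaled by median-of-ratios size factors and tested with limma 3.58.1 (R 4.3.3) on log2(normalised count + 1) with a mean trend, the 3 groups of a stage together, a mean of at least 10, and Benjamini-Hochberg adjustment over all genes tested, with adjusted p under 0.05 called. This scale understates the change of low genes. The fit across stages used 18 libraries. The scripts were tested on simulated data. In simulated comparisons of KO #4 with WT, a log2 change of 0.5 was called for 41% (primed), 48% (NPC) and 52% (CM) of the changed genes. A change of 1 was called for 98 to 99%. Members that were not called may therefore still differ by a small amount. edgeR and DESeq2 were not run, because the deposited unit is a signal, and naive cells could not be tested. Genes were placed with GENCODE vM1 (mm9), 20202 by symbol and 2289 by synonym, with 2718 not placed.

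Members and lists were chosen with earlier results of these data known. Named were members on chromosome 8 with the subunits of their complexes, up to 5 called members with the largest change per comparison, and the most and least abundant members. Scripts ran in Python 3.11.15 (numba 0.67.0, numpy 2.4.6, scipy 1.17.1, pandas 2.3.3) and drew figures with matplotlib 3.10.9.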

Additional observations from a re-analysis of the deposited data

Results flagged for a closer look

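The effect of the knockout, taken as the mean of both clones against WT, differed between CMs and primed cells for 8 of the 9 members that could be tested at both stages (limma, differences on the log2 scale, CM minus primed). The difference was 0.77 for Gins1 (adjusted p = 8.76e-05), 0.71 for Pole2 (adjusted p = 0.00144), 0.67 for Rfc4 (adjusted p = 8.51e-05), 0.58 for Rfc3 (adjusted p = 0.000868) and 0.48 for Cdc45 (adjusted p = 0.00195). It was 0.45 for Rpa3 (adjusted p = 0.0222), 0.44 for Prim2 (adjusted p = 0.00443) and 0.43 for Gins2 (adjusted p = 0.0088). Gins2 is the only 1 of these genes on chromosome 8, whose genes were already higher in the clones in primed cells. The calls of Gins2 and Rpa3 were lost without the deeper WT library of the CMs (adjusted p = 0.0906 and 0.134), and that of Rpa3 also without the deeper (adjusted p = 0.0668) or the shallower (adjusted p = 0.0597) primed WT library. WT levels of all 8 genes were lower in CMs than in primed cells, and marker genes of several cell types differed between the CM groups. Their part in these differences was not tested.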

How the results depend on the processing

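Over 72 fold changes of called members and 1222 alternative fits of them, 0 changed sign, 1146 stayed past the threshold and 76 did not. With single libraries left out, which assumes that a lone library varies like the other groups, the number of members called was 2 to 2 (KO #4), 2 to 3 (KO #8) and 0 to 0 (KO #4 against KO #8) in primed cells, 0 to 4, 1 to 5 and 0 to 2 in NPCs, and 12 to 13, 7 to 11 and 5 to 10 in CMs. It was 9 to 9 for WT NPCs and 8 to 9 for WT CMs against WT primed cells, 0 to 0 for the change of the knockout effect in NPCs and 6 to 8 for that in CMs. Of the other alternatives, only voom weights and no filter on low values moved a count by over 1.5 times, both to 2 members called in KO #4 NPCs. Size factors without chromosome 8, the total of the recovered reads and the authors' size factors (added after the data were seen) moved no such count. The total of recovered reads shifted the median of all genes by 0.13 in WT NPCs against primed cells and by at most 0.1 elsewhere. Over all tested genes, the number called moved by over 1.5 times with no filter on low values from 1727 to 918 (primed KO #4), from 1297 to 599 (primed KO #8), from 250 to 34 (primed, between clones) and from 125 to 53 (NPC, between clones). With voom weights it moved from 734 to 418 (NPC KO #4), from 125 to 55 (NPC, between clones) and from 379 to 150 (change of the knockout effect in NPCs). With only the groups compared it moved from 734 to 1744 (NPC KO #4), from 1115 to 634 (NPC KO #8) and from 125 to 5 (NPC, between clones). The causes were not tested. No paired analysis was possible because the recovered libraries carry no replicate number. The planned edgeR and DESeq2 fits and all fits with naive cells were not run, the latter because 9 unknown reads share 2 equations. Members with base means of 1000 or more, among them most of the machinery, could not be tested against WT, and 2 libraries per group limit the rest.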

Other observations

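The polymerases were described above only by single subunits. In ppm of all base means per kilobase of exon, with all groups pooled, the ratio of the highest to the lowest subunit of polymerase alpha-primase was 1.86 in naive and 1.88 in primed cells and 3.24 and 3.25 in NPCs and CMs, with Pola2 the highest and Pola1, the catalytic subunit, the lowest at each stage (42.8 and 23 in naive cells, 24 and 7.41 in NPCs). For the single-strand binding complex the ratio went the other way, from 2.49 and 2.97 to 1.61 and 1.58, with Rpa1 the highest and Rpa3 the lowest at each stage. These levels have no replicate error and depend on the exon lengths used. Undivided, Pola1 stood at 202 and Pola2 at 123 ppm in naive cells.

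Genes that work beside the 48 members were also mostly higher in KO #4 than in KO #8 in CMs, by base mean and without a test. Over all 10820 genes compared, 49.4% were higher in KO #4. Higher in KO #4 were 23 of 27 firing and fork factors (median 28.6% of the mean level) and 13 of 16 other genes of nucleotide supply (median 43.7%). So were 8 of 8 genes of chromatin assembly at the fork (median 32.3%), but only 7 of 13 E2F, DP and pocket protein genes (median 4.78%). In NPCs, 0 of 8 chromatin assembly genes were higher in KO #4 (median -10%), and 1 of 13 E2F, DP and pocket protein genes was, against 51.8% of all genes compared.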
